A study of Mus musculus with 12 samples.

Results

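Gene expression in the colon of mice on a high-fat diet (HFD) was set against that of mice on the diet labelled CD, in animals that had not received dextran sulfate sodium (DSS), the agent that induces colitis in the rest of the study. The comparison used 6 of the 12 libraries, and it covered 13406 of the 54532 genes in the table. These genes reached an FPKM (fragment count scaled by transcript length and by a size factor of each library) of 1 or more in at least 3 of the 6 libraries. The study crossed diet with DSS and measured colon RNA by sequencing in 3 libraries per group. The groups used here were HFD without DSS (3 libraries) and CD without DSS (3 libraries), and HFD+DSS and CD+DSS (3 libraries each) served only for values set beside them. All mice were wild type C57BL/6J, and the labels name no transgene or deletion. The labels do not spell out CD, give no diet composition, duration, age or sex, and do not say that each library came from a separate animal, so p-values measure the spread between these libraries, part of which may be technical. Whole colon tissue was labelled, without a statement of which segment was taken.

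Dietary fat reaches intestinal cells as fatty acids, which are burned in mitochondria and peroxisomes, stored as triglyceride or packed into lipoproteins. Fatty acids also bind the peroxisome proliferator-activated receptors (PPARs), transcription factors that switch on genes of fatty acid uptake and oxidation. Fat in the gut is emulsified by bile acids, which are taken back up by dedicated transporters and sensed by the nuclear receptor FXR, and the colon epithelium they meet is protected by mucus, secreted antibacterial proteins and resident lymphocytes.

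The 6 libraries held about 14700000 to 17000000 fragments over genes, as recovered from the FPKM values, and 21814 to 23124 genes above 0. Epcam, a surface protein of epithelial cells, was at 599 to 812 FPKM in HFD libraries and 674 to 828 FPKM in CD libraries. Of 11 listed small intestine genes, Lct, Defa17 and Apoa4 were at or near 0 in both groups, but others were not. Rbp2 had 6.2, 4.18 and 12.9 FPKM in HFD and 9.29, 14.7 and 8.23 FPKM in CD, and Fabp6 is given below. The list summed to 37.7, 25.8 and 58.7 FPKM in HFD and to 19.1, 27.7 and 94.2 FPKM in CD. All 6 libraries had the same pattern of sex-linked genes, with Ddx3y at 10.9 to 14.6 FPKM in HFD and 11.1 to 16.7 FPKM in CD. In a principal component analysis, the first component held 37.8% of the variance and did not separate the diets. The second held 22.9% and did. CD replicate 3 stood apart from the other CD libraries: it alone had Krt15 at 17.4 FPKM and Krt4 at 6.1 FPKM, keratins of squamous epithelium that were at 0.111 and 0 FPKM or less in HFD libraries and at 0.238 and 0.0895 FPKM or less in the other CD libraries. Its exocrine pancreas genes summed to 60.6 FPKM, against 8.51 to 17.8 FPKM in HFD and 8.13 to 14.1 FPKM in the other CD libraries. Its skeletal muscle genes summed to 33 FPKM, against 8.3 to 13.2 FPKM in HFD and 6.72 to 7.36 FPKM in the other CD libraries. Values without it are given beside calls and list medians that it moved most.

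No gene passed the test for a diet effect. With limma on log2(FPKM + 1) and Benjamini-Hochberg adjustment over all tested genes, 0 of 13406 genes (0%) had an adjusted p under 0.05, and the smallest adjusted p was 0.158. At an unadjusted p under 0.05, 382 genes were higher in HFD (2.85%) and 402 were lower (3%). All 3 HFD values lay above all 3 CD values for 604 genes (4.51%), and below them for 681 genes (5.08%). A positive fold change was found in 45.3% of tested genes, and these shares are the background for every list count below. In the deposited values, every library had the same median ratio (1.009) to the mean of the 12 libraries, over genes above 0 in all of them. That scaling holds the median fold change of all genes near 0. The median standard error of a log2 fold change was 0.18, against a median absolute fold change of 0.12. Fold changes are HFD minus CD after the addition of 1 to each FPKM, so those of genes at low level come out too small. Leaving out CD replicate 3 gave 20 called genes, 12 higher and 8 lower in HFD, leaving out HFD replicate 3 gave 1, and leaving out any other library gave 0. Since no gene was called with all libraries, the genes below are described by their values.

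Targets of the fatty acid receptor PPAR-alpha stood at higher values in HFD colon. Ppara itself, which encodes the receptor, had 7.92, 7.89 and 8.33 FPKM in HFD colons, against 3.39, 2.06 and 4.71 FPKM in CD colons. The 3 HFD values were nearly equal and all lay above the CD values (log2 fold change 1.09 ± 0.22 SE, limma adjusted p = 0.375, n = 3 each). Vnn1 (chromosome 10, 23894688 to 23905343, plus strand), a pantetheinase and known PPAR-alpha target, had 14.9, 6.26 and 19.0 FPKM in HFD and 0.67, 1.05 and 1.64 FPKM in CD. The groups did not overlap, and the mean was 13.4 ± 6.49 FPKM in HFD and 1.12 ± 0.488 FPKM in CD (SD, n = 3 each; log2 fold change 2.67 ± 0.37 SE, limma adjusted p = 0.182). Pdk4, the kinase that shuts pyruvate out of oxidation when fat is burned, had 20.5, 14.7 and 33.4 FPKM in HFD, against 7.72, 5.55 and 6.05 FPKM in CD, again without overlap (1.62 ± 0.28, limma adjusted p = 0.311). Angptl4, a secreted inhibitor of lipoprotein lipase, had 6.36, 2.67 and 7.44 FPKM in HFD and 0.839, 0.523 and 1.68 FPKM in CD. Its lowest HFD value was in replicate 2, as it was for Vnn1 and Pdk4, and the groups did not overlap (1.64 ± 0.34, limma adjusted p = 0.389). Of the 13 tested genes among 18 listed PPAR receptors and targets, 12 had a positive fold change and 5 had all HFD values above CD, where 45.3% of all tested genes had a positive fold change and 4.51% were above. The list's median log2 fold change was 0.40, and 0.23 without HFD replicate 3, against -0.02 over all tested genes. Cyp4a14 and Cyp4a31, liver targets of the same receptor, were listed at 0 in all 6 libraries.

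Most peroxisomal oxidation genes had the same direction, and the genes of fatty acid uptake were mixed. Of 13 tested uptake and binding genes, 8 had a positive fold change and 1 (Cd36) lay above CD. That list's median was 0.18, and it was -0.02 without HFD replicate 3, 0.28 without CD replicate 3 and 0.08 without CD replicate 2. Cd36 (chromosome 5), the fatty acid translocase, had 21.9, 12.7 and 32.5 FPKM in HFD colons, against 4.63, 4.36 and 8.37 FPKM in CD colons (log2 fold change 1.74 ± 0.35 SE, limma adjusted p = 0.375). Acaa1b, a peroxisomal thiolase, had 18.7, 4.82 and 24.2 FPKM in HFD and 0.244, 0.227 and 2.97 FPKM in CD, the largest positive fold change among the genes named (2.97 ± 0.64, limma adjusted p = 0.389). In both genes every HFD library lay above every CD library, and HFD replicate 2 was the lowest of its group. Catalase (Cat), which breaks down the peroxide that peroxisomes make, had 48.9, 37.8 and 56.3 FPKM in HFD and 32.4, 26.3 and 30.0 FPKM in CD. Ehhadh, the bifunctional enzyme of peroxisomal oxidation, had 27.8, 20.9 and 33.4 FPKM in HFD and 15.7, 14 and 17.8 FPKM in CD. Abcd2, a peroxisomal transporter of long fatty acids, averaged 1.64 ± 0.409 FPKM in HFD and 0.458 ± 0.0837 FPKM in CD (SD, n = 3 each). None of these 3 overlapped between the diets, and their log2 fold changes were 0.66, 0.74 and 0.85. Of 17 tested peroxisomal genes, 14 had a positive fold change and 9 had all HFD values above CD, with a median of 0.41 that was 0.21 without HFD replicate 3. A single member lay below. Over all tested genes, 45.3% had a positive fold change, 4.51% lay above CD and 5.08% below.

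The mitochondrial pathway was shifted by smaller amounts. Cpt1a, which admits fatty acids into mitochondria, had 85.6, 81.7 and 107 FPKM in HFD, against 72.5, 61.7 and 62.0 FPKM in CD, without overlap (log2 fold change 0.47 ± 0.18 SE, limma adjusted p = 0.725). Acaa2, the last enzyme of the mitochondrial cycle, had 103, 93.8 and 142 FPKM in HFD and 72.3, 67.9 and 81.7 FPKM in CD (0.59 ± 0.20, limma adjusted p = 0.665). Of 21 tested genes of the pathway, 19 had a positive fold change, 7 had all HFD values above CD and 0 lay below. Over all tested genes, these shares were 45.3%, 4.51% and 5.08%. The pathway's median was 0.31, and 0.13 without HFD replicate 3. Of 7 tested ketone body genes, 4 had a positive fold change, and the median was 0.01, between -0.12 and 0.06 with 1 library left out. The nuclear genes of the respiratory chain had 25 positive fold changes of 29, none without overlap, and a median of 0.09. Without HFD replicate 3 that median was -0.08, without HFD replicate 2 it was 0.20, and without CD replicate 2 it was 0.06.

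**Figure D1:**
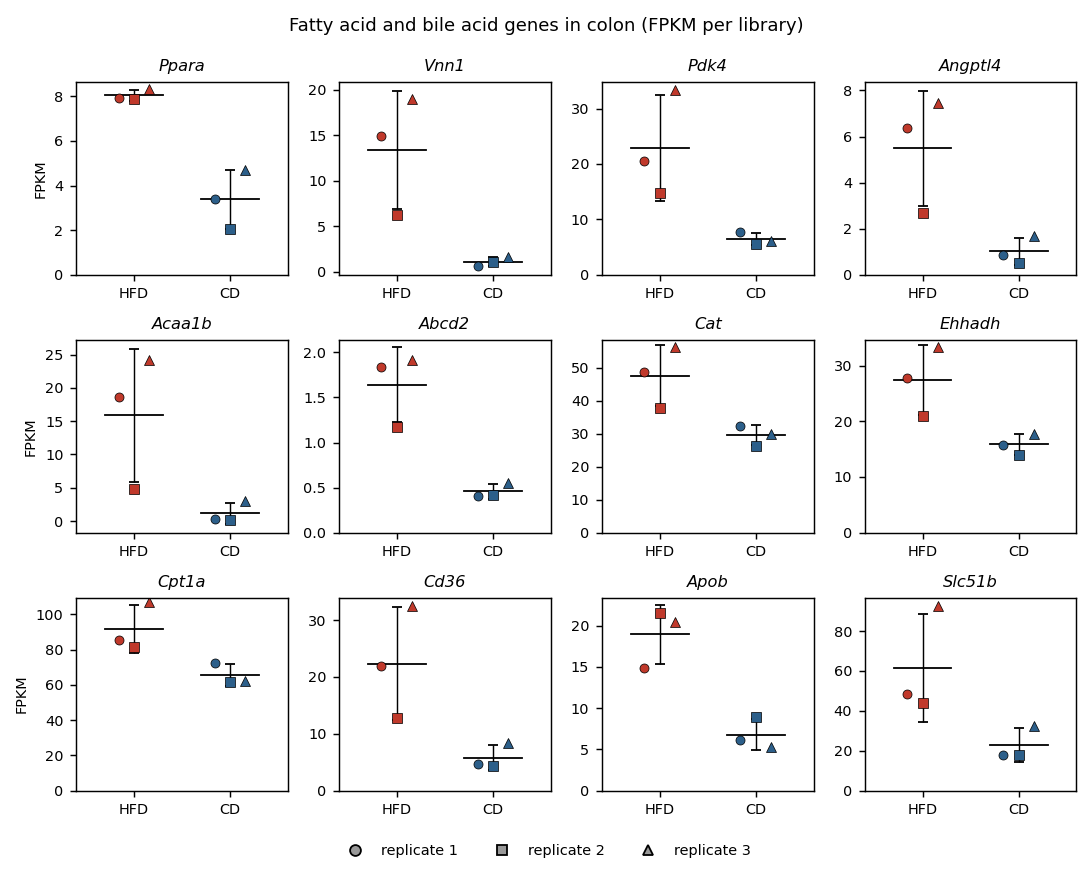
FPKM of 12 lipid and bile acid genes in each library, with HFD left of CD; symbols mark replicates, and bars show the mean and SD of 3 libraries. In all 12 panels the lowest HFD value lies above the highest CD value, and no gene passed the adjusted test.

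Adipocyte genes moved with these results. The 16 listed adipocyte genes summed to 331, 97.1 and 339 FPKM in HFD libraries, against 60.3, 16 and 163 FPKM in CD libraries, so the HFD libraries with the highest sums (replicates 1 and 3) were also those with the highest Vnn1, Acaa1b and Cd36. All 12 tested members had a positive fold change, 4 had all HFD values above CD, and the median was 1.61. Adipoq, the fat cell hormone adiponectin, had 26.3, 7.22 and 33.6 FPKM in HFD and 2.56, 0.276 and 11.6 FPKM in CD, with HFD replicate 2 below CD replicate 3 (log2 fold change 2.36 ± 0.85 SE, limma adjusted p = 0.692; 1.57 without CD replicate 2). Plin4, a lipid droplet coat protein, averaged 6.95 ± 2.22 FPKM in HFD and 1.95 ± 1.03 FPKM in CD (SD, n = 3 each) and did not overlap. In bulk tissue, more cells of a type and more RNA per cell cannot be told apart. With the mean adipocyte level of each library as a covariate, the median of the mitochondrial list was 0.04, that of the peroxisomal list 0.24 and that of the PPAR list 0.24, and the log2 fold change of Vnn1 was 1.92, of Pdk4 1.20, of Acaa1b 1.30 and of Cd36 0.89.

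Promoter windows of RefSeq (assembly GRCm38.p6, 250 bases before to 50 after a transcript start) were searched on both strands for the motif AGGTCA, which PPARs, FXR and other nuclear receptors bind, and for the direct repeat AGGTCANAGGTCA of PPAR binding. Of 71 tested genes in the lists of fatty acid uptake, oxidation, ketone bodies and PPAR targets, 57 had an entry, with 68 windows. AGGTCA was in 15 of the 68 windows (22.1%), against 5340 of all 32851 windows (16.3%), and the direct repeat was in 0 of 68, against 13 of all windows (0.0396%). A match is a string of letters, not a binding site. The windows of Cd36, Slc51b and Cat are shown because these 3 had the largest positive fold changes, among fatty acid and bile acid genes with all HFD values above CD, that had AGGTCA in their window. That of Cxcl10, an interferon-induced chemokine described below, is shown for the interferon response core GAAANNGAAA, which was in 3 of 23 windows of T cell, NK cell and chemokine genes (13%) and in 3.44% of all windows. All 4 genes lie on the minus strand, the sequences run 5′ to 3′ along the gene, and capitals mark the motif on either strand, which starts 228, 203, 204 and 213 bases before the transcript start of the RefSeq table in the order given. For Cd36 that start lies inside the annotated gene (17781690 to 17888801), so the window belongs to an internal start and not to the first one. The windows are chr5:17835847-17836146 for Cd36, chr9:65422724-65423023 for Slc51b, chr2:103485104-103485403 for Cat and chr5:92348840-92349139 for Cxcl10.
Cd36: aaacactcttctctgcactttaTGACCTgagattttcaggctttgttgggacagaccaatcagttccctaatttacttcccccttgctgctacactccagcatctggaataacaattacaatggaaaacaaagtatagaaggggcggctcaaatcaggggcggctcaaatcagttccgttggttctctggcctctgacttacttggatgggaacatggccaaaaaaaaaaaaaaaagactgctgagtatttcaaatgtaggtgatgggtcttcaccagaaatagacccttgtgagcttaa
Slc51b: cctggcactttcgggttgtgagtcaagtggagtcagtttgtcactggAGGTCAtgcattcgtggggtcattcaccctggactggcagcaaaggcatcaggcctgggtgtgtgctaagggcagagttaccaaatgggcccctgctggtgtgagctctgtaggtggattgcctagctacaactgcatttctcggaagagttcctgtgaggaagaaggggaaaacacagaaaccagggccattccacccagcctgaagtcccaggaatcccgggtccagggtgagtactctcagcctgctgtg
Cat: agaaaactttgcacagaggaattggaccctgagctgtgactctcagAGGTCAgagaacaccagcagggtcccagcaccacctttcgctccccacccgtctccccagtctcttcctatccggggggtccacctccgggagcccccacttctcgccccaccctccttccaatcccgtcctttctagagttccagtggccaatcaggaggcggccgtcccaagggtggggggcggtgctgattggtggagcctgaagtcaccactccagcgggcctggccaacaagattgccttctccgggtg
Cxcl10: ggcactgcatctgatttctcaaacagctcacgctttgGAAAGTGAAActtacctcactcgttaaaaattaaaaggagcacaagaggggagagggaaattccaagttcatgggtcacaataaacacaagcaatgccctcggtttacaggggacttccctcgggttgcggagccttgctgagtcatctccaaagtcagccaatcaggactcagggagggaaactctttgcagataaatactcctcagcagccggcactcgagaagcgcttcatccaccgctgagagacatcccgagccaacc

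Of 15 tested genes of triglyceride and lipoproteins, 11 had a positive fold change, 4 lay above CD and 0 below, with a median of 0.27, which was -0.07 with the adipocyte covariate. Apob, the scaffold protein of chylomicrons and other lipoproteins, had 14.9, 21.5 and 20.5 FPKM in HFD colons, against 6.14, 8.94 and 5.32 FPKM in CD colons, without overlap (log2 fold change 1.37 ± 0.22 SE, limma adjusted p = 0.284). Its order among HFD libraries differed from that of the adipocyte genes, with replicate 1 the lowest, and its fold change was 1.79 with the adipocyte covariate. That of Lpl was 1.46, and 0.48 with the covariate, and that of Dgat2, the last enzyme of triglyceride synthesis, was 1.00, and 0.13 with it. Lpl, the lipase that frees fatty acids from lipoproteins, had 15.8, 11.6 and 34.9 FPKM in HFD and 5.03, 4.37 and 10.2 FPKM in CD. Lpin2, a phosphatidate phosphatase, averaged 9.64 ± 1.09 FPKM in HFD and 6.6 ± 0.584 FPKM in CD (SD, n = 3 each). Fatty acid synthesis genes were mixed, with 7 of 17 positive. Fads2, the desaturase that starts the synthesis of polyunsaturated fatty acids, had 40.2, 38.2 and 53.6 FPKM in HFD, against 71.5, 132 and 67.5 FPKM in CD (-0.97 ± 0.28, limma adjusted p = 0.54). Scd2, a stearoyl-CoA desaturase, had 99.7, 111 and 139 FPKM in HFD and 192, 264 and 153 FPKM in CD. Acss2, which makes acetyl-CoA from acetate, averaged 7.41 ± 0.776 FPKM in HFD and 11.1 ± 2.22 FPKM in CD (SD, n = 3 each). With Acly and Fads1, named after their values were seen, these 3 were the 5 of 17 tested fatty acid synthesis genes with all HFD values below CD, against 5.08% of all tested genes, and 0 of the 17 lay above. The list's median was -0.07, near that of all genes, and it ran between -0.12 and 0.02 with 1 library left out, where it was above 0 without HFD replicate 1. With the posterior Hox covariate described below, the fold change of Fads2 was -0.36 and that of Scd2 -0.28, beside -0.97 and -0.77 without it.

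In the cholesterol pathway, 21 of 23 tested genes had a negative fold change. A positive one was found in 8.7%, against 45.3% of all tested genes. In 4 genes all HFD values lay below CD, against 5.08% of all tested genes, and the pathway's median was -0.21. The median was -0.04 with the posterior Hox covariate, -0.36 without CD replicate 3, -0.32 without HFD replicate 3, and -0.14 without CD replicate 1 or HFD replicate 2. Sqle, squalene epoxidase, had 18.4, 15.8 and 20.4 FPKM in HFD colons, against 29.1, 29.4 and 23.1 FPKM in CD colons (log2 fold change -0.56 ± 0.16 SE, limma adjusted p = 0.544). Dhcr7, the last enzyme of the pathway, averaged 13.9 ± 2.47 FPKM in HFD and 19.2 ± 1.66 FPKM in CD (SD, n = 3 each). Mvd, mevalonate decarboxylase, averaged 12.8 ± 2.77 FPKM in HFD and 18.4 ± 3.2 FPKM in CD (SD, n = 3 each). The 3 genes did not overlap between the diets, nor did Ebp, a sterol isomerase named after its values were seen, and their log2 fold changes were -0.56, -0.45 and -0.50 for the first 3.

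Bile acid genes had higher values in HFD, most of all the transport proteins. Slc51b, a subunit of the basolateral exporter of bile acids, had 48.2, 44.0 and 92.8 FPKM in HFD colons, against 18.0, 17.7 and 32.6 FPKM in CD colons, without overlap (log2 fold change 1.37 ± 0.34 SE, limma adjusted p = 0.5). Its partner Slc51a had 34.4, 12.9 and 38.6 FPKM in HFD and 0.656, 1.73 and 14.4 FPKM in CD. Slc10a2, the apical sodium-dependent bile acid importer, had 36.4, 17.9 and 44.3 FPKM in HFD and 0.881, 3.56 and 22.6 FPKM in CD. For Slc51a and Slc10a2, CD replicate 3 lay above HFD replicate 2, so the groups overlapped; the log2 fold changes were 2.71 and 2.44, and 3.66 and 3.44 without CD replicate 3. That of Slc10a2 was 1.61 without CD replicate 1. With the adipocyte covariate they were 0.88 and 0.79. Fabp6, the ileal bile acid binding protein, had 17.3, 4.73 and 32.4 FPKM in HFD and 0.751, 3.59 and 4.13 FPKM in CD, without overlap. Nr1h4, which encodes FXR, averaged 54.4 ± 11.2 FPKM in HFD and 35.2 ± 12.4 FPKM in CD (SD, n = 3 each), with overlap. All 9 tested genes of the 15 listed had a positive fold change, 2 lay above CD, and the median was 0.65. It was 0.56 with the adipocyte covariate and 1.12 with the posterior Hox covariate described below. The FXR targets Nr0b2 and Fgf15 were at 0 to 0.0213 FPKM in HFD and 0 to 0.0624 FPKM in CD.

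Enzymes that modify drugs, steroids and bile pigments showed a similar shift. Ugt1a1, the glucuronosyltransferase that conjugates bilirubin, had 21.6, 13.8 and 15.7 FPKM in HFD, against 3.91, 3.29 and 8.36 FPKM in CD, without overlap (log2 fold change 1.61 ± 0.31 SE, limma adjusted p = 0.356; 1.95 and adjusted p = 0.0372 without CD replicate 3). Ugt2b5, of the same class, had 18.9, 17.1 and 44.2 FPKM in HFD and 5.55, 4.18 and 13.8 FPKM in CD. Cyp2d26, a cytochrome P450, had 44.8, 15.3 and 39.4 FPKM in HFD and 5.32, 5.26 and 13.7 FPKM in CD. Ugt1 genes share their last exons, so reads may have been counted for more than 1 of them. Of 25 tested detoxification genes, 22 had a positive fold change, 10 lay above CD and 1 (Gstm1, named after its values were seen) lay below. Over all tested genes, these shares were 45.3%, 4.51% and 5.08%. The detoxification median was 0.63 (0.30 without HFD replicate 3). Of 16 tested brush border genes, 11 had a positive fold change, 3 lay above CD and 0 below, with a median of 0.12, which was 0.06 without HFD replicate 3, 0.08 without HFD replicate 1 and 0.23 without HFD replicate 2. Alpi, an intestinal alkaline phosphatase, had 29.0, 20.7 and 28.6 FPKM in HFD and 9.7, 8.39 and 14.7 FPKM in CD (1.20 ± 0.23, limma adjusted p = 0.356). The amino acid transporter genes Slc3a1 and Slc7a9, whose products form 1 carrier of cystine and basic amino acids, both lay above CD. They belong to a list of sugar and amino acid transporters with 8 of 14 positive fold changes, 3 above CD and 2 below, and a median of 0.04 that lay between -0.06 and 0.07 with 1 library left out. The others without overlap were Slc7a8 above, named after its values were seen, with Slc1a1 and, named likewise, Slc7a5 below. Slc3a1 averaged 24.2 ± 0.907 FPKM in HFD and 16.7 ± 2.29 FPKM in CD, and Slc7a9 averaged 3.47 ± 1.32 FPKM in HFD and 1.12 ± 0.643 FPKM in CD (SD, n = 3 each).

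**Figure D2:**
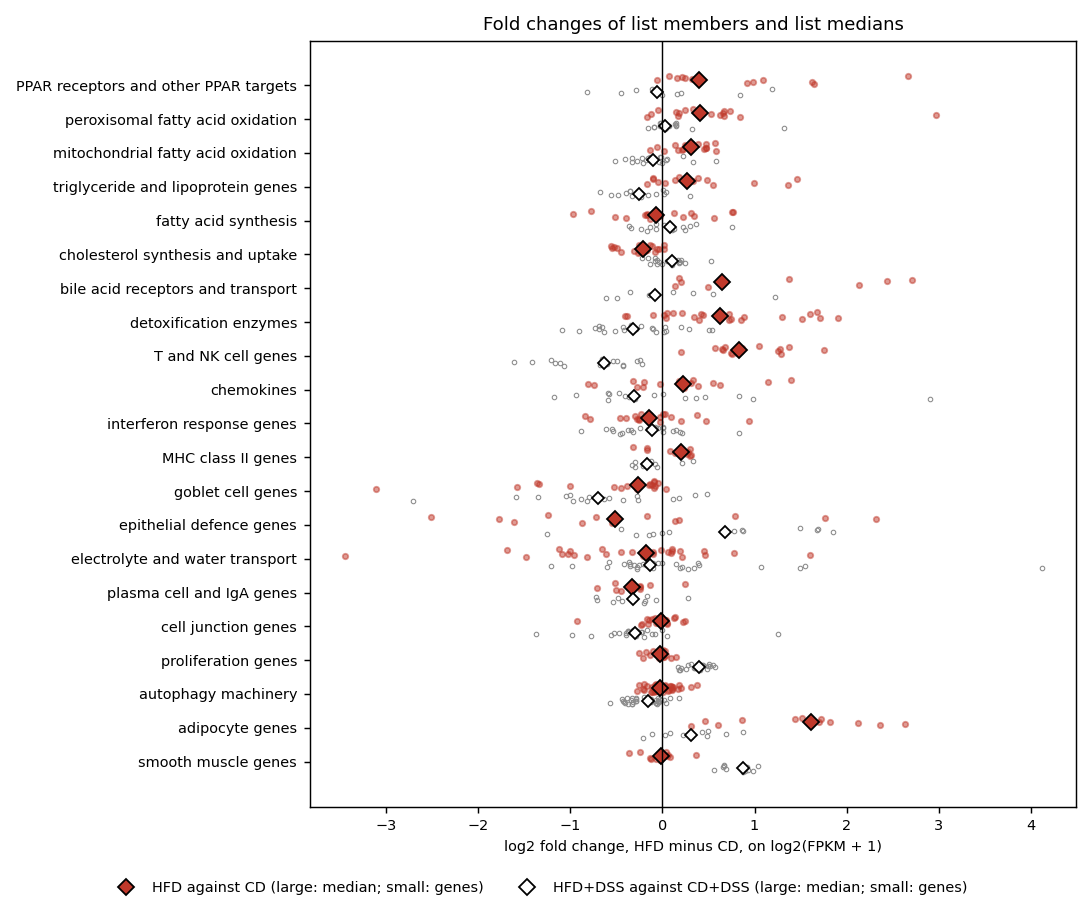
Log2 fold changes of the tested members of 21 gene lists for HFD against CD (filled) and HFD+DSS against CD+DSS (open), with diamonds at the list medians. T and NK cell genes lie right of 0 without DSS (median 0.83) and left of 0 with DSS (-0.63), and the medians of the oxidation lists are positive only without DSS except for the peroxisomal list (0.03 with DSS).

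The medians of the PPAR, oxidation and triglyceride lists were nearer to 0 or negative among the DSS libraries, a difference not tested for the lists. For HFD+DSS against CD+DSS, limma called 0 of 14179 genes (0%), with 938 at an unadjusted p under 0.05, and 44.5% of the genes tested in both comparisons had a positive fold change. The median of all tested genes was -0.03, that of the PPAR list -0.06, of the mitochondrial list -0.10 and of the detoxification list -0.32. Pdk4 averaged 10.3 FPKM in HFD+DSS and 12.0 FPKM in CD+DSS, and Ppara averaged 3.51 FPKM in HFD+DSS and 4.73 FPKM in CD+DSS. Vnn1 and Acaa1b kept positive fold changes of 1.19 and 1.32 there. The interaction of diet and DSS was called for 0 of 14179 genes (0%) with limma, with 769 at an unadjusted p under 0.05, so none of these differences between the settings passed a test.

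Transcripts of T cells and natural killer cells had higher values in HFD colon. Gzma, granzyme A of cytotoxic lymphocytes, had 40.0, 41.2 and 32.9 FPKM in HFD colons, against 6.5, 7.46 and 23.0 FPKM in CD colons. The groups did not overlap, and CD replicate 3 was again nearest to HFD (log2 fold change 1.76 ± 0.41 SE, limma adjusted p = 0.449; 2.29 and adjusted p = 0.0169 without that library). Nkg7, a protein of cytotoxic granules, had 11.3, 12.0 and 8.28 FPKM in HFD and 2.43, 2.51 and 6.04 FPKM in CD (1.38 ± 0.30, limma adjusted p = 0.389; 1.72 and 0.0372 without CD replicate 3). Cd3g, a chain of the T cell receptor complex, had 3.84, 4.92 and 3.23 FPKM in HFD and 1.56, 1.64 and 2.35 FPKM in CD. Cd7, a surface protein of T and NK cells, averaged 13.2 ± 4.25 FPKM in HFD and 4.87 ± 1.52 FPKM in CD (SD, n = 3 each). Of 22 listed genes 16 were tested. All 16 had a positive fold change, against 45.3% of all tested genes. All HFD values lay above CD for 11, against 4.51% of all tested genes, and 0 lay below, with a list median of 0.83. That median was 0.77 with the adipocyte covariate, 0.56 with the posterior Hox covariate and 0.99 without CD replicate 3. Genes of B cells (2 of 6 positive, median -0.10), macrophages and dendritic cells (8 of 14, 0.04) and MHC class II (7 of 10, 0.20) showed 1 member without overlap among them, the integrin gene Itgax, named after its values were seen. With 1 library left out, these medians ran between -0.53 and 0.38, between -0.15 and 0.20, and between -0.02 and 0.42.

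In the DSS libraries the lymphocyte genes had the opposite direction. The list summed to 127 to 178 FPKM in HFD and 42.6 to 107 FPKM in CD, but to 49.8 to 107 FPKM in HFD+DSS and 120 to 264 FPKM in CD+DSS. Gzma averaged 15.4 FPKM in HFD+DSS and 43.8 FPKM in CD+DSS. None of the 16 tested members had a positive fold change there, and their median was -0.63. The interaction had a limma adjusted p of 0.174 for Nkg7 and 0.56 for Gzma.

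**Figure D3:**
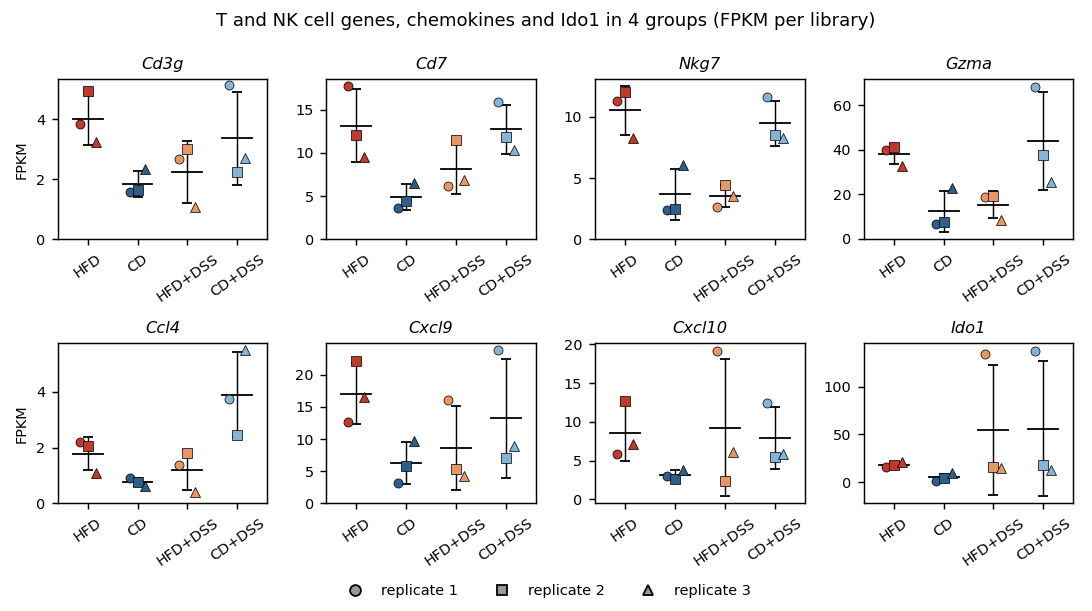
FPKM of 8 lymphocyte, chemokine and interferon-linked genes in all 4 groups, each HFD group left of its CD group; symbols mark replicates, and bars show the mean and SD of 3 libraries. Without DSS all HFD values lie above all CD values in each panel, and for Gzma and Nkg7 the HFD+DSS values lie below the CD+DSS values.

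Some chemokines and interferon-linked genes had higher values in HFD. Cxcl9, which attracts T cells, had 12.6, 22.1 and 16.5 FPKM in HFD, against 3.14, 5.84 and 9.66 FPKM in CD (log2 fold change 1.40 ± 0.35 SE, limma adjusted p = 0.5). Cxcl10, of the same receptor, had 5.88, 12.7 and 7.21 FPKM in HFD and 3.06, 2.66 and 3.81 FPKM in CD (1.15 ± 0.26, limma adjusted p = 0.421). Of 18 tested chemokines, 11 had a positive fold change, 7 lay above CD and 0 below. Over all tested genes, these shares were 45.3%, 4.51% and 5.08%. The chemokine median was 0.22. That median was 0.13 without HFD replicate 1, 0.14 without CD replicate 2, 0.35 without CD replicate 3 and 0.08 with the adipocyte covariate. Ido1, the tryptophan-degrading enzyme, had 15.6, 18.4 and 21.2 FPKM in HFD and 1.54, 3.91 and 9.37 FPKM in CD, without overlap (1.93 ± 0.45, limma adjusted p = 0.448; 2.45 and adjusted p = 0.0451 without CD replicate 3). Ubd, a ubiquitin-like modifier, had 38.9, 49.9 and 45.7 FPKM in HFD and 1.74, 17.2 and 12.0 FPKM in CD (2.40 ± 0.63, limma adjusted p = 0.515; 1.57 without CD replicate 1). The guanylate-binding protein gene Gbp2 averaged 60.6 ± 24.1 FPKM in HFD and 30.2 ± 7.59 FPKM in CD (SD, n = 3 each). It was 1 of 2 members of the interferon list that lay above CD. Oas1a, an antiviral enzyme, lay below with 43.4 ± 2.41 FPKM in HFD and 60.9 ± 11.9 FPKM in CD (SD, n = 3 each). Rsad2, an interferon-induced gene named after its values were seen, was called lower in HFD without CD replicate 3 (-1.53, limma adjusted p = 0.0451). In all, 7 of 22 tested interferon genes had a positive fold change, and the median was -0.14. Its direction turned with single libraries: it was 0.04 without CD replicate 1, 0.07 without CD replicate 2, -0.40 without CD replicate 3, -0.23 without HFD replicate 2 and -0.06 without HFD replicate 3, and 0.50 with the adipocyte covariate.

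Most of the genes with the smallest p-values had lower values in HFD, among them secreted proteins of the gut. Pla2g2f (chromosome 4, 138750533 to 138757626, minus strand), a secreted phospholipase A2, had 1.53, 1.86 and 3.78 FPKM in HFD colons, against 14.7, 12.3 and 14 FPKM in CD colons. The gap between the groups was wide next to the spread within each (log2 fold change -2.17 ± 0.24 SE, limma adjusted p = 0.158; -2.45 and adjusted p = 0.0307 without HFD replicate 3). Pla2g2a (chromosome 4, 138831857 to 138835186, plus strand), a gene of the same family, had 1.15, 1.65 and 2.6 FPKM in HFD and 7.37, 8.3 and 9.63 FPKM in CD (-1.78 ± 0.21, limma adjusted p = 0.158). Under DSS, Pla2g2a averaged 25.6 FPKM in HFD+DSS and 6.04 FPKM in CD+DSS, with an interaction adjusted p of 0.277 in limma, and that of Pla2g2f was 0.174. Mptx1 (chromosome 1, 174330518 to 174332873, plus strand), mucosal pentraxin, a lectin-like protein of the colon epithelium, had 80.5, 130 and 187 FPKM in HFD and 1540, 1410 and 5400 FPKM in CD. Every CD library was several times above the highest HFD library (-4.17 ± 0.56, limma adjusted p = 0.182; -3.55 and adjusted p = 0.0344 without CD replicate 3). With DSS it had 181, 126 and 224 FPKM in HFD+DSS and 231, 1.76 and 0.42 FPKM in CD+DSS, so those groups overlapped and 1 CD+DSS library lay above all others. Cd177, a surface glycoprotein best known from neutrophils, had 45.5, 39.8 and 33.0 FPKM in HFD and 129, 90.8 and 109 FPKM in CD (-1.45 ± 0.20, limma adjusted p = 0.182). It was also lower with DSS, at 41.9 FPKM in HFD+DSS and 91.0 FPKM in CD+DSS on average. The granulocyte and mast cell list had 3 of 6 positive fold changes and a median of -0.11, between -0.21 and 0.00 with 1 library left out.

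Goblet cells make the mucus of the colon, and 19 of their 20 listed genes had a negative fold change. The share with a positive fold change was 5%, against 45.3% of all tested genes. The median was -0.27. All HFD values lay below CD for 4 genes, against 5.08% of all tested genes, and 0 lay above. Clca1, a secreted metalloprotease of mucus, had 549, 360 and 602 FPKM in HFD, against 763, 1090 and 3790 FPKM in CD. Spink4, a protease inhibitor, had 241, 284 and 432 FPKM in HFD and 738, 472 and 1440 FPKM in CD. Ang4, an antibacterial ribonuclease, had 126, 144 and 15.9 FPKM in HFD and 238, 262 and 3190 FPKM in CD. In these 3 genes CD replicate 3 was far above the other CD libraries, and without it their log2 fold changes were -0.89, -0.93 and -1.89, against -1.57, -1.36 and -3.11 with it. The list median was -0.01 without that library and -0.58 without CD replicate 2. Creb3l1, a transcription factor of secretory cells, had 72.3, 69.2 and 56.5 FPKM in HFD and 101, 86.4 and 96.6 FPKM in CD (-0.52 ± 0.17 SE, limma adjusted p = 0.621, and -0.51 without CD replicate 3). Of 15 tested epithelial defence genes, 10 had a negative fold change, 3 lay below CD and 0 above, with a median of -0.52, which was -0.14 with the posterior Hox covariate, -0.30 with the adipocyte covariate and -0.32 without CD replicate 2. Besides Pla2g2a these were Duox2 and, named after its values were seen, the antibody transporter gene Pigr. Only the transcript of Pla2g2a was measured, and whether these mice make an active enzyme from it was not tested. Duox2, the epithelial peroxide-producing oxidase, averaged 27.7 ± 7.25 FPKM in HFD and 40.3 ± 6.18 FPKM in CD (SD, n = 3 each), without overlap, and its fold change of -0.55 was -0.32 without HFD replicate 3. Reg3g, a lectin that kills Gram-positive bacteria, overlapped, with 16.5, 7.86 and 19.3 FPKM in HFD and 0.794, 2.32 and 12.6 FPKM in CD.

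**Figure D4:**
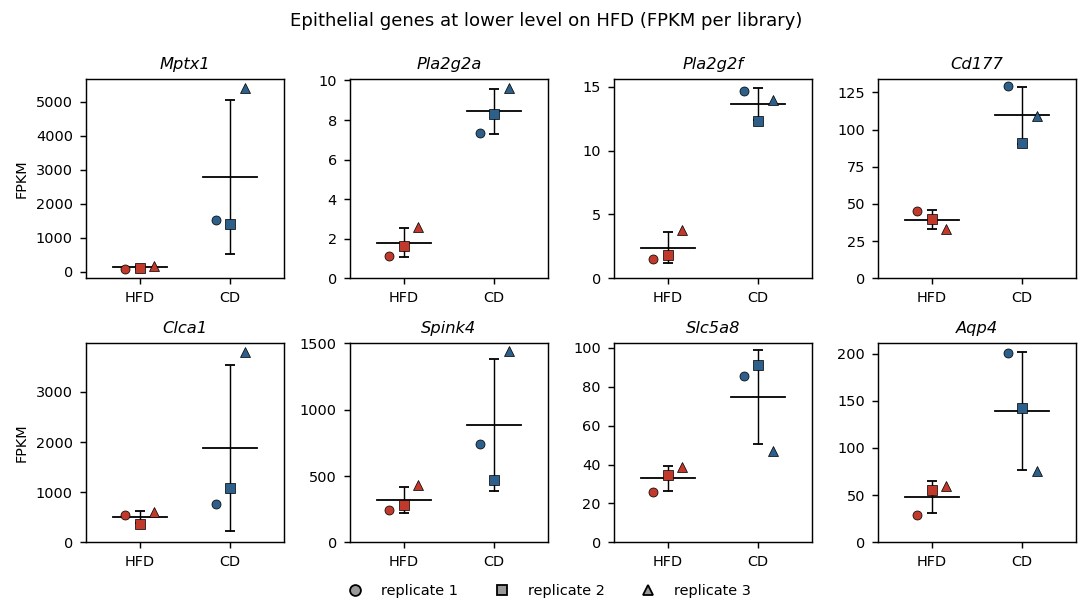
FPKM of 8 epithelial genes in each library, with HFD left of CD; symbols mark replicates, and bars show the mean and SD of 3 libraries. All HFD values lie below all CD values in each panel, and CD replicate 3 is the highest for Mptx1 (5400 FPKM), Clca1 (3790 FPKM) and Spink4 (1440 FPKM).

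Several genes of salt and water absorption were lower in HFD. Slc5a8, which takes up butyrate and other short fatty acids, had 25.8, 34.4 and 38.6 FPKM in HFD, against 85.6, 91.3 and 47.2 FPKM in CD (log2 fold change -1.12 ± 0.28 SE, limma adjusted p = 0.501). Scnn1a, the alpha subunit of the epithelial sodium channel, had 11.0, 13.5 and 15.4 FPKM in HFD and 33.1, 31.7 and 19.3 FPKM in CD (-1.0 ± 0.23, limma adjusted p = 0.448). Aqp4, a water channel, had 28.9, 55.8 and 59.3 FPKM in HFD and 201, 142 and 75.3 FPKM in CD. In all 3 the groups did not overlap, and CD replicate 3 was the lowest CD library. Slc26a3, the chloride-bicarbonate exchanger of surface cells, had 19.3, 32.9 and 44.6 FPKM in HFD and 164, 154 and 40.1 FPKM in CD, with overlap through that library. Guca2b, uroguanylin, had the other direction, with 29.6, 25.9 and 34.3 FPKM in HFD and 14.9, 15.0 and 21.6 FPKM in CD. Of 31 tested transport genes, 10 had a positive fold change, 2 lay above CD and 4 below (besides those named, Car12 above and Kcne3 below, named after their values were seen). Over all tested genes, these shares were 45.3%, 4.51% and 5.08%. The transport median was -0.17, and it was 0.11 with the posterior Hox covariate, -0.28 without HFD replicate 3 and -0.11 without CD replicate 2.

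Genes that mark position along the gut differed between the libraries. Hoxb13 is active at the distal end of the colon, and had 0.711, 0 and 19.3 FPKM in HFD colons, against 32.9, 61.3 and 28.8 FPKM in CD colons. HFD replicates 1 and 2 were near 0 while HFD replicate 3 was close to the CD libraries (log2 fold change -3.61 ± 1.01 SE, limma adjusted p = 0.529). Hoxd13 had 0.0253, 0 and 8.22 FPKM in HFD and 1.18, 27.2 and 1.5 FPKM in CD, with overlap, and its fold change of -1.34 was -0.14 without CD replicate 2. The mean log2(FPKM + 1) of Hoxa13, Hoxb13 and Hoxd13 was 1.23, 1.37 and 3.53 in HFD and 3.63, 5.11 and 3.13 in CD, a difference of -1.92 (exact two-sided permutation test, p = 0.2, n = 3 each, where 0.1 is the smallest p that 3 against 3 allows). Hoxb6, Hoxb7 and Hoxb8, more anterior genes of the Hoxb cluster, ran the other way, but the Hox lists as a whole were mixed. Of 11 tested Hox genes of groups 1 to 8, 6 had a positive fold change, 3 lay above CD and 0 below, with a median of 0.99. Of 9 tested genes of groups 9 to 13, 4 had a positive fold change, 1 lay above CD and 1 below. Their median was -0.17, and 0.18 without HFD replicate 3. Over all tested genes, these shares were 45.3%, 4.51% and 5.08%. Hoxb8 had 11.4, 8.63 and 7.65 FPKM in HFD and 0.728, 1.35 and 6.19 FPKM in CD, without overlap (1.71 ± 0.48, limma adjusted p = 0.529; 2.33 and adjusted p = 0.0344 without CD replicate 3). Hoxb7 had 10.5, 8.22 and 9.97 FPKM in HFD and 1.32, 1.48 and 8.12 FPKM in CD, and Hoxb6 had 34.0, 20.7 and 17.1 FPKM in HFD and 2.17, 2.82 and 24.7 FPKM in CD. CD replicate 3 thus had Hoxb6 to Hoxb8 at the level of the HFD libraries, and HFD replicate 3 had Hoxb13 nearer to that of the CD libraries. Where along the colon each piece was cut is not given in the sources used here, and the part of position in the diet differences was not tested beyond the values with the covariate.

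Several epithelial genes had the same order of libraries as Hoxb13 or nearly so. Insl5, a peptide hormone of distal colon endocrine cells, had 4.08, 6.81 and 33.4 FPKM in HFD, against 93.7, 93.5 and 42.4 FPKM in CD (log2 fold change -2.72 ± 0.68 SE, limma adjusted p = 0.5, and -1.10 with the posterior Hox covariate). B3gnt7, a glycosyltransferase, had 3.29, 1.88 and 23.9 FPKM in HFD and 56.1, 87.8 and 28.0 FPKM in CD (-2.97 ± 0.79, limma adjusted p = 0.516, and -0.97 with the covariate). In both genes HFD replicate 3 and CD replicate 3 were closest to the other diet, and the groups did not overlap. Ctse, the protease cathepsin E, averaged 4.16 ± 3.12 FPKM in HFD and 18.5 ± 9.99 FPKM in CD (SD, n = 3 each), and its fold change of -1.93 was -0.65 with the covariate. With the covariate, the fold changes were -4.28 for Mptx1, -1.81 for Pla2g2f, -1.50 for Pla2g2a, -1.77 for Cd177, 3.03 for Vnn1 and 2.00 for Pdk4, beside -4.17, -2.17, -1.78, -1.45, 2.67 and 1.62 without it. With DSS, Hoxb13 averaged 42.7 FPKM in HFD+DSS and 7.57 FPKM in CD+DSS, so the direction of this position gene was opposite in the 2 settings, as was that of Insl5 (60.8 FPKM in HFD+DSS and 18.5 FPKM in CD+DSS).

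**Figure D5:**
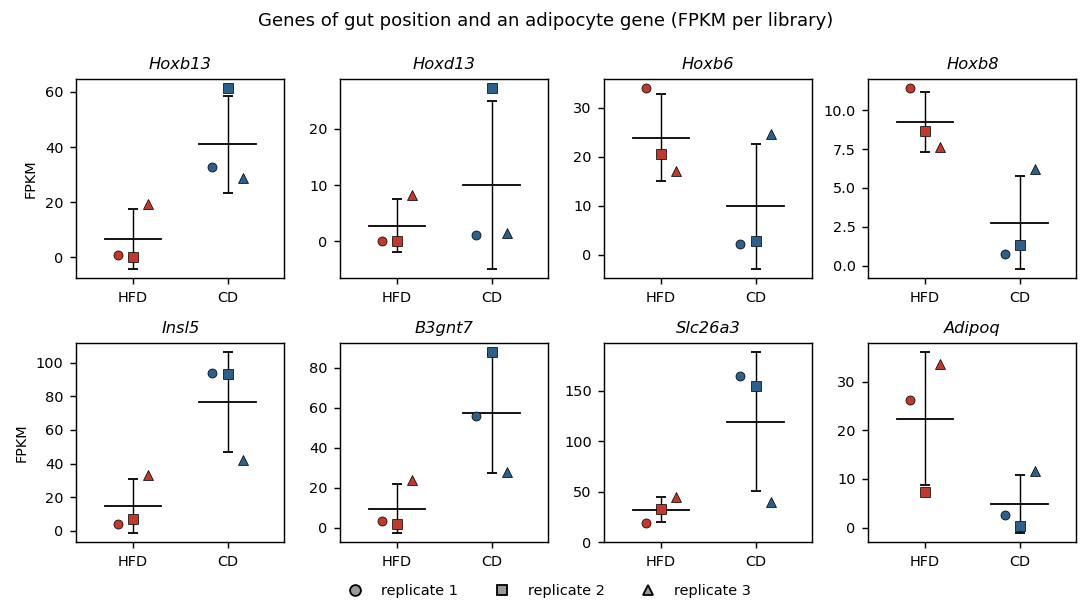
FPKM of Hox genes, which mark gut position, of the epithelial genes Insl5, B3gnt7 and Slc26a3, and of the adipocyte gene Adipoq in each library. HFD is left of CD, symbols mark replicates, and bars show the mean and SD of 3 libraries. Hoxb13 is at 0.711 and 0 FPKM in HFD replicates 1 and 2 and at 19.3 FPKM in HFD replicate 3, and CD replicate 3 has Hoxb6 at 24.7 FPKM beside 2.17 and 2.82 FPKM in the other CD libraries.

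Clock genes differed in a few members. Nr1d1, a repressor of the circadian clock, had 4.82, 3.17 and 4.68 FPKM in HFD, against 1.03, 1.92 and 1.73 FPKM in CD (log2 fold change 1.03 ± 0.20 SE, limma adjusted p = 0.363). Its paralogue Nr1d2 had 6.05, 7.05 and 7.73 FPKM in HFD and 3.58, 3.91 and 2.76 FPKM in CD (0.85 ± 0.16, limma adjusted p = 0.311). Per2, a clock gene with another phase, had 3.47, 3.37 and 2.41 FPKM in HFD and 4.71, 4.81 and 5.34 FPKM in CD (-0.55 ± 0.15, limma adjusted p = 0.527). The 3 genes did not overlap between the diets and were the only such members of 14 tested clock genes, whose median was 0.03, between -0.07 and 0.14 with 1 library left out. The hour at which tissue was taken is not given in the sources used here. With DSS, Nr1d1 averaged 4.28 FPKM in HFD+DSS and 4.69 FPKM in CD+DSS.

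Autophagy, the process named in the study's title, had a median close to that of all genes without DSS. Of 38 tested genes of the machinery, 18 had a positive fold change, 1 (Nbr1) lay above CD and 1 (Atg2a) below, both named after their values were seen, and the median was -0.03, beside -0.02 over all tested genes. With DSS, 4 of 38 were positive and the median was -0.16. Lysosome genes had 22 of 26 negative fold changes with a median of -0.15 (-0.09 without HFD replicate 2), and 3 (Ctsl, Npc2 and Tfe3) lay below CD. The lysosome median was -0.005 with the posterior Hox covariate and -0.23 with the adipocyte covariate. Genes of the unfolded protein response had 21 of 23 negative fold changes with a median of -0.14 (-0.01 without CD replicate 3 and -0.24 without CD replicate 1), and 4 (Ern1, Eif2ak3, Herpud1 and Sel1l) lay below CD. These 7 were named after their values were seen. A positive fold change was found in 15.4% of lysosome and 8.7% of unfolded protein genes, against 45.3% of all tested genes. Over all tested genes, 5.08% lay below CD. Medians lay within 0.05 of 0 for cell junctions (-0.01), stem cell and Wnt target genes (0.00), proliferation (-0.03), fibroblasts and matrix (-0.03) and smooth muscle (-0.02), and with 1 library left out they lay between -0.23 and 0.27. Transcript levels do not measure autophagic flux.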

How the data were processed

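RNA from 12 mouse colon samples was extracted and made into libraries with the SMARTER kit for mRNA, per the protocols in the labels, and the submitters' processing notes name the mouse genome build mm10. No source used here names the aligner or counter. FPKM values per gene, as deposited by the authors in a single table, were the input. Whole fragments were recovered from FPKM and the GENCODE mouse release 21 exon lengths, with 97.0% to 97.2% of values whole within 0.1. They served for depth and for 1 alternative only, since the recovered numbers could not be checked against the authors' own counts. The depth of each library limits the precision of genes at low FPKM, and no counting interval is given.

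FPKM were analysed as log2(FPKM + 1) with limma 3.58.1 (lmFit, eBayes with trend) in R 4.3.3. The 3 HFD and 3 CD libraries were fitted for genes that reached FPKM 1 in 3 of these 6, and all 12 libraries for the DSS comparison and the interaction (14179 genes). A gene was called where its p, adjusted by Benjamini-Hochberg over every tested gene, was under 0.05. The fit was also run on simulated data, drawn with the same spread for every gene and without differences in tissue content between libraries. Because these libraries differ in such ways, that run does not bear on the calls given here. Gene lists (59, with 783 distinct tested genes) were described by counts and medians, with no set test. The genes named are the 12 largest fold changes in each direction among genes without overlap between the groups and with a mean of FPKM 5 or more in the higher one (predicted genes and antibody or T cell receptor segments left out), the 8 smallest p-values, the 4 smallest p-values in each list, every member of the bile acid, adipocyte, ketone body, posterior Hox and sex-specific lists, and a fixed set of lipid, epithelial, cytokine and autophagy genes. Members of a list that are named only to complete a count, and keratins, were named after their values were seen. The members and lists were chosen with earlier results of these data known. An exact two-sided permutation test was used for the posterior Hox level. Gene coordinates are those of the GENCODE annotation of the same build. The labels do not say whether replicate numbers pair the samples, and the main fit used no pairing. The deviations of same-numbered libraries correlated at -0.19, 0.13 and -0.33, and those of HFD replicate 1 and CD replicate 3 at 0.51. With 3 libraries a group, such values cannot show whether samples were paired. Alternatives were the pseudocount, the filter, rescaling, quantile normalization, the trend, voom on recovered fragments, all 12 libraries in 1 fit, 3 covariates, a replicate block and leaving out each library. A few genes are not reported here.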

Additional observations from a re-analysis of the deposited data

Results flagged for a closer look

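The summed FPKM of T and NK cell genes was 127 to 178 in HFD libraries and 42.6 to 107 in CD libraries, but 49.8 to 107 in HFD+DSS libraries and 120 to 264 in CD+DSS libraries, so every HFD library lay above every CD library without DSS and below with DSS. This difference of directions was not tested for the sum. The summed FPKM of Hoxa13, Hoxb13 and Hoxd13 had the opposite arrangement, with 7.04 to 34.7 in HFD and 38.3 to 111 in CD, against 46.6 to 92.8 in HFD+DSS and 1.62 to 40.5 in CD+DSS. It was not tested for the sum either, and gut position and diet cannot be told apart in these libraries where they move together.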

How the results depend on the processing

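With 3 libraries a group, the smallest adjusted p was 0.158, and 16 of the 18 alternatives called no gene. Genes called ranged from 0 to 20 when 1 library was left out (20 without CD replicate 3, 1 without HFD replicate 3). Genes at an unadjusted p under 0.05 numbered 784, and 1356 with no filter, 449 with a filter of FPKM 5, 1251 with the posterior Hox covariate and 565 to 1107 with 1 library left out. The fit with a replicate block called 0 genes, with 646 at an unadjusted p under 0.05 and, for the interaction, 0. The interaction called 0 genes, 1 with no filter and 0 to 3 with 1 library left out (3 without CD replicate 3, 1 without CD+DSS replicate 1). The posterior Hox level difference of -1.92 ranged from -2.66 to -1.34 with 1 library left out; 2 libraries against 3 leave too few arrangements for their p to show stability. Of 97 genes of the text and figures recomputed under the alternatives, 95 kept their direction in all that could be run. Genes given only as a level, and Rsad2, were not recomputed. The exceptions were Adipoq, at -0.072 with the adipocyte covariate, and Hoxd13, at 1.76 with the posterior Hox covariate, each of which is part of the covariate itself. Many of the 97 were named because their groups did not overlap. For such genes, leaving out a library or changing the pseudocount could not turn the direction, so the count is no measure of stability. Scaling by TPM, quantiles or voom moved the median of all genes by less than 0.1. The scaling of the deposited values already holds that median near 0, so it is no measure of a shift of most genes. List medians under the alternatives moved by less than the spread between libraries in 985 of 1060 cases. That spread is the SD of a list's mean level between replicates, and it can be larger than the median itself. A median that fell to near 0 could thus count as unmoved, so this count is no measure of stability either. With a filter of FPKM 5, no median could be given for mesothelium and skeletal muscle genes. Low depth limits genes near 1 FPKM.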

Other observations

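Immunoglobulin and receptor segments were among the smallest p-values. The kappa variable segment Igkv4-74 had 0.637, 1.29 and 1.16 FPKM in HFD colons, against 5.17, 5.81 and 8.98 FPKM in CD colons (log2 fold change -1.90 ± 0.22 SE, limma adjusted p = 0.158). Igkv4-90 had 0.892, 2.58 and 2.78 FPKM in HFD and 14, 14.1 and 9.88 FPKM in CD (-2.20 ± 0.28, limma adjusted p = 0.182). Neither overlapped between the diets. Segments of 1 family are near copies of each other, so reads may have been split among them. The plasma cell and IgA list as a whole had 11 of 12 negative fold changes with a median of -0.33. That median was -0.56 without CD replicate 1, -0.18 without CD replicate 2, -0.19 without CD replicate 3, -0.21 without HFD replicate 3 and -0.07 with the adipocyte covariate. Tnfrsf17, the receptor that keeps plasma cells alive, averaged 2.37 ± 0.282 FPKM in HFD and 3.84 ± 0.53 FPKM in CD (SD, n = 3 each).

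The joining segment Trgj1 was listed at 0 in all 3 HFD libraries and at 2, 2.12 and 4 FPKM in CD libraries. It is very short (chromosome 13, 19210343 to 19210402), so these values rest on very few fragments, and its small p-value carries little weight. The predicted gene Gm21885 had 33.8, 22.6 and 29.3 FPKM in HFD and 10.9, 8.49 and 10.7 FPKM in CD (1.41 ± 0.19 SE, limma adjusted p = 0.182). Slc1a1, an epithelial glutamate transporter, had 1.75, 2.13 and 2.65 FPKM in HFD and 3.67, 6.24 and 4.67 FPKM in CD, while it averaged 4.63 FPKM in HFD+DSS and 1.83 FPKM in CD+DSS; the limma interaction had an adjusted p of 0.183. Genes of enteric neurons and glia had 13 of 15 positive fold changes, 6 above CD and 1 below (Gfap, a glial filament gene named after its values were seen), with a median of 0.27. Over all tested genes, these shares were 45.3%, 4.51% and 5.08%.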
